A study of Bos taurus with 24 samples.

Results

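In the adrenal gland of female calves, 7 gene IDs of 27570 in the count tables met a rule for abundant transcripts with a modest and complete rise between birth and weaning. Levels are in CPM, an ID's read count scaled to the sum of counts in its library (counts multiplied by 1e6 over that sum). The rule kept IDs with a mean of at least 20 CPM over 24 libraries, with every weaning library above every birth library, and with a mean weaning level (0.5 CPM added to each mean) at least 25% above the mean birth level and under 2 times that level. A mean of at least 20 CPM was reached by 8208 IDs. Of these, 732 had a ratio in that range, and 7 of the 732 (0.956%) had no overlap between the ages. The 7 IDs were thus chosen by their measured CPM at birth and weaning, so the ratio and the absence of overlap are given as descriptions without a test.

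The adrenal gland joins a cortex, which makes glucocorticoids, mineralocorticoids and androgens from cholesterol, and a medulla, whose chromaffin cells release catecholamines. Its cortex is remodelled after birth, when the demands of fetal maturation and delivery end. In whole tissue, more RNA per cell and more cells of a type that expresses a gene give the same higher level and cannot be told apart. Gene symbols are not part of the deposited tables, and 0 of the 37063 genes in the reference table used here carried an Ensembl ID. The IDs are therefore given without names, roles, positions or sequences. The labelled tissue was for the same reason not checked against its marker genes.

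Groups had 6 calves each. In utero cooled (IUCL) calves and in utero heat stressed (IUHS) calves were sampled at birth, which was day 0, and at weaning, which was day 63. All were female, and each calf gave 1 library. In the samples' labels a number follows the treatment, and calves are called by it here.  Total counts ran from 12261651 to 19012206 per library. In a principal component analysis of all libraries, the third component set IUHS calf 28 at weaning (35.9) apart from its group (-6.80 to 2.11). The fourth did so for IUCL calf 3 at birth (-41.8, with its group at 1.83 to 4.996). Counts of IDs, treatment differences and correlations were also computed without both.

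Mean levels over 24 libraries ran from 234 CPM for ENSBTAG00000018893 through 163 CPM for ENSBTAG00000010885, 122 CPM for ENSBTAG00000003395 and 107 CPM for ENSBTAG00000010720 to 67.2 CPM for ENSBTAG00000018040, 51.95 CPM for ENSBTAG00000007208 and 38.5 CPM for ENSBTAG00000016109. By mean CPM these placed them between rank 709 and rank 5726 of the 8208 abundant IDs. The lowest count of any of them in any library was 282 and the highest 6068.

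**Figure D1:**
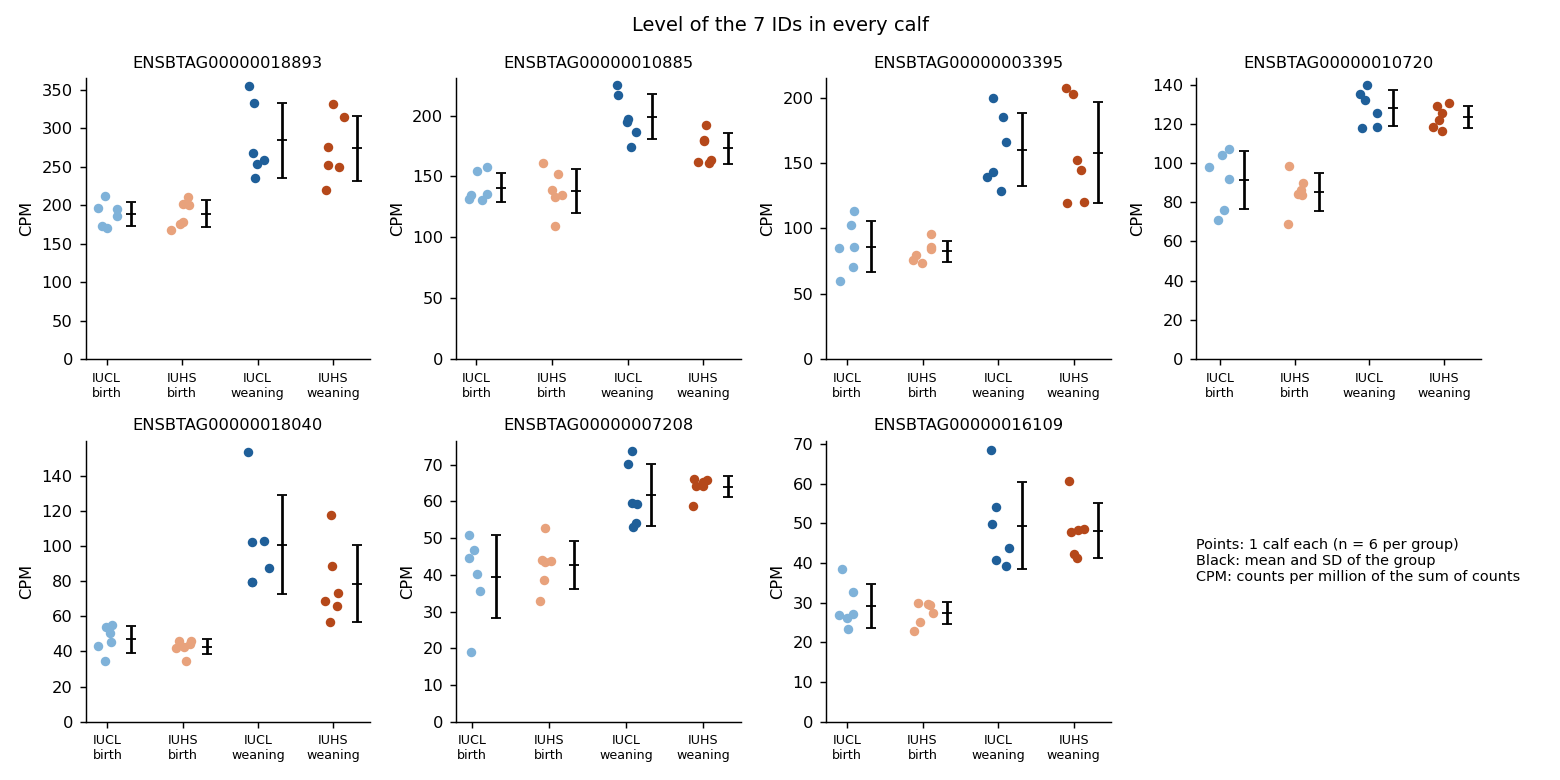
CPM of each of the 7 IDs in every calf (vertical axes from 0, 1 panel per ID), by treatment and age, with the mean and SD of 6 calves in black. In each panel all 12 weaning points lie above all 12 birth points, and the IUCL and IUHS points overlap at both ages.

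ENSBTAG00000018893, the most abundant of the 7, lay between 171 and 212 CPM (median 191) in IUCL and between 168 and 211 CPM (median 189) in IUHS calves at birth. At weaning it lay between 236 and 356 CPM (median 264) in IUCL and between 221 and 332 CPM (median 264) in IUHS calves. Both treatments had nearly the same level at each age, and the calves were more widely spread at weaning. The standard deviation was 15.7 and 17.6 CPM at birth against 48.4 and 42.2 CPM at weaning (IUCL and IUHS, n = 6 each).

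ENSBTAG00000010885 had the smallest ratio of weaning to birth, 1.33. Birth levels were 131 to 158 CPM (median 135) in IUCL and 109 to 161 CPM (median 137) in IUHS calves. Weaning levels were 175 to 225 CPM (median 196) in IUCL and 161 to 192 CPM (median 172) in IUHS calves. The highest birth calf, IUHS calf 2 at 161.1 CPM, and the lowest weaning calf, IUHS calf 31 at 161.3 CPM, differed by 0.138%.

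ENSBTAG00000003395 had a ratio of 1.88. It measured 59.9 to 113 CPM (median 85.3) in IUCL and 73.8 to 95.9 CPM (median 82.1) in IUHS calves at birth. It measured 128 to 199.6 CPM (median 155) in IUCL and 120 to 207 CPM (median 149) in IUHS calves at weaning. The calf with the highest birth level, IUCL calf 7, was also the highest at birth for ENSBTAG00000018893 and ENSBTAG00000010720.

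ENSBTAG00000010720 was the ID with the widest separation between ages relative to its level. Birth levels were 71.0 to 107 CPM (median 94.98) in IUCL and 68.8 to 98.5 CPM (median 85.1) in IUHS calves. Weaning levels were 118 to 139.6 CPM (median 129) in IUCL and 117 to 130.4 CPM (median 124) in IUHS calves. Weaning calves were close together here, with an SD of 8.98 CPM after cooling and 5.64 CPM after heat stress, against 14.9 and 9.68 CPM at birth.

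ENSBTAG00000018040 had a ratio of 1.99, just under the limit of 2. At birth it lay between 34.7 and 54.8 CPM (median 47.8) in IUCL and between 34.5 and 46.1 CPM (median 43.6) in IUHS calves. At weaning it lay between 79.4 and 154 CPM (median 94.8) in IUCL and between 56.5 and 118 CPM (median 71.0) in IUHS calves. IUCL calf 19 at 154 CPM and IUHS calf 28 at 118 CPM were the highest of their groups. The lowest IUHS weaning calf, at 56.5 CPM, came close to the highest birth level of 54.8 CPM, and the next were at 66.1 and 68.6 CPM.

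ENSBTAG00000007208 measured 19.1 to 50.9 CPM (median 42.4) in IUCL and 32.9 to 52.6 CPM (median 43.6) in IUHS calves at birth, with IUCL calf 6 the lowest. At weaning it measured 53.0 to 73.7 CPM (median 59.5) in IUCL and 58.6 to 66.0 CPM (median 64.8) in IUHS calves. Its ratio was 1.52. The IUHS calves at weaning were the closest together of any group of any of the 7 IDs, with a coefficient of variation of 4.32%, and the IUCL calves at birth were the farthest apart, at 28.6%.

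ENSBTAG00000016109, the least abundant, measured 23.5 to 38.5 CPM (median 27.1) in IUCL and 22.9 to 29.9 CPM (median 28.4) in IUHS calves at birth. At weaning it measured 39.4 to 68.5 CPM (median 46.8) in IUCL and 41.3 to 60.6 CPM (median 48.1) in IUHS calves. Its ratio was 1.71. IUCL calf 3, a library that stood apart, was the highest at birth, and IUHS calf 28, the other, was the highest of its group at weaning.

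The spread within groups was not uniformly small among the 7 IDs. The coefficient of variation, averaged over the 4 groups, was 9.57% for ENSBTAG00000010885 and 9.81% for ENSBTAG00000010720, and 8.20% and 9.56% of the 8208 abundant IDs had a lower value than these. It was 12.5% for ENSBTAG00000018893, 15.5% for ENSBTAG00000007208 and 16.4% for ENSBTAG00000016109, where the median of the abundant IDs was 16.2%. For ENSBTAG00000003395 and ENSBTAG00000018040, whose ratios were nearest to 2, it was 18.7% and 20.5%.

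The separation between ages was narrow at its edge. The lowest weaning library exceeded the highest birth library by 8.67% for ENSBTAG00000010720, 5.80% for ENSBTAG00000003395, 3.87% for ENSBTAG00000018893, 3.10% for ENSBTAG00000018040 and 2.24% for ENSBTAG00000016109. For ENSBTAG00000007208 it did so by 0.785%. The exact Poisson 95% intervals of the boundary counts, which cover counting error only, overlapped for all 7 IDs. Overlap of intervals is not a test of the difference, and none was made. The closest to it was ENSBTAG00000010720, where 1642 reads in IUCL calf 7 at birth gave 102 to 112.5 CPM and 1668 reads in IUHS calf 25 at weaning gave 111 to 122 CPM. Among the 19 abundant IDs without overlap whose ratio was 2 or more, the margin was 2.33% to 77.1% (median 19.9%), and the intervals were separate for 12. Margins were not compared by a test, since the rule used them.

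**Figure D2:**
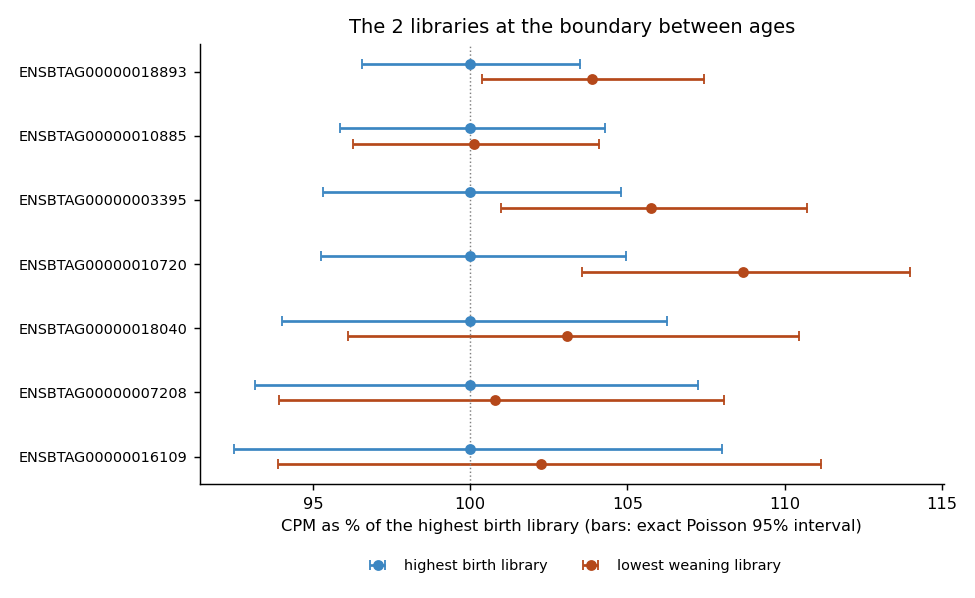
For each ID, the highest birth library and the lowest weaning library, as a percentage of the highest birth library (horizontal axis), with exact Poisson 95% intervals. The weaning point lies 0.138% to 8.67% to the right, and both intervals overlap for each of the 7 IDs.

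IDs just outside the rule were picked by nearness to its limits, and no other trait of them was compared. Of the abundant IDs, 26 of 8208 (0.317%) had every weaning library above every birth library, and 0 of these 26 rose by less than 25%. The nearest above the upper ratio limit had ratios of 2.07 and 2.19. Among IDs in the ratio range that missed by overlap, 10 came within 5% of separation. The nearest had lowest weaning levels of 0.9987, 0.994 and 0.991 times the highest birth level. Only 2 IDs under 20 CPM met the other conditions, with means of 11.03 and 0.258 CPM.

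Which IDs met the rule depended on the scaling of the libraries. TMM scaling, which corrects library totals for the composition of their RNA, gave 11 IDs, and 4 of the 7 were among them. DESeq2 size factors gave 10 IDs, and 3 of the 7 were among them. ENSBTAG00000018893, ENSBTAG00000003395 and ENSBTAG00000007208 met the rule under all 3 scalings. ENSBTAG00000010720 was kept under TMM, where its lowest weaning level was 1.015 times its highest birth level, and was lost under size factors at 0.997 times. ENSBTAG00000010885 fell to 0.919 and 0.903 times, ENSBTAG00000016109 to 0.951 and 0.946 times, and ENSBTAG00000018040 to 0.990 and 0.982 times, with a ratio of 2.017 and 2.004 in the last case. Under both scalings IUCL calf 3 became the highest birth library of ENSBTAG00000018893, ENSBTAG00000010885, ENSBTAG00000003395 and ENSBTAG00000010720. Its TMM factor was 0.933, the lowest of the birth libraries (next 0.950), where all libraries ranged from 0.917 to 1.09. The ratio of ENSBTAG00000003395, for example, was 1.88 by the sum of counts, 1.90 with TMM and 1.89 with size factors. Whether composition accounts for the change in membership was not tested.

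**Figure D3:**
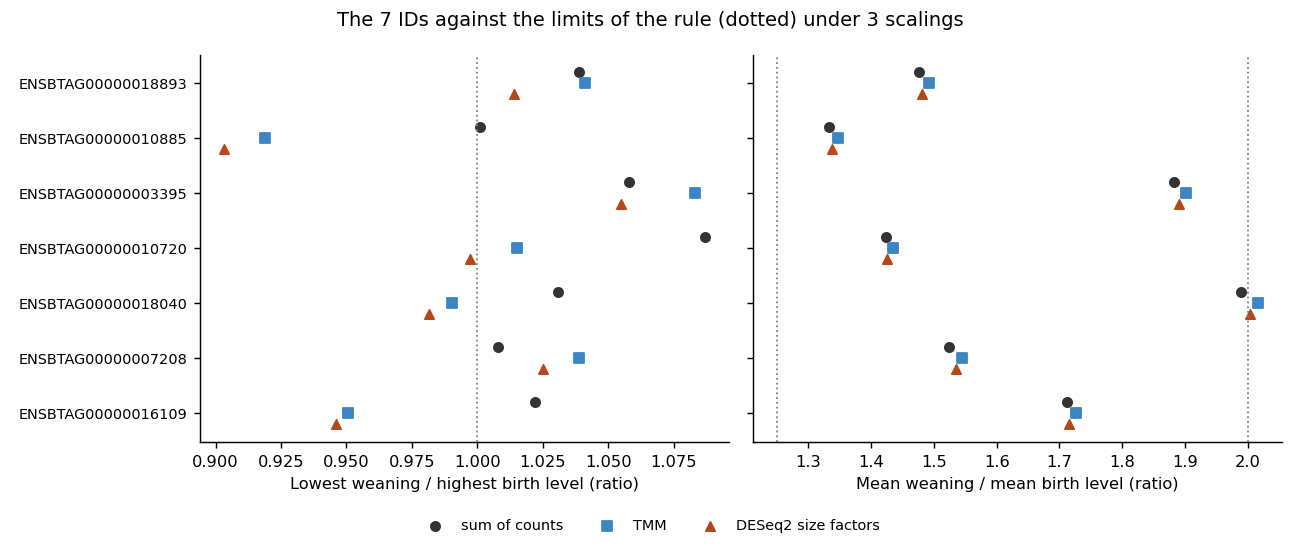
The 7 IDs under 3 scalings, with the lowest weaning level over the highest birth level at left and the ratio of mean levels at right, and the limits of the rule as dotted lines. Ratios stay nearly in place, while 3 IDs under TMM and 4 under DESeq2 size factors fall below a margin of 1.

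Single libraries also set who met the rule. Without IUHS calf 5 at birth 19 IDs met it, and without IUCL calf 3 at birth 13 did, with all 7 among them in both cases. Without both libraries that stood apart it was met by 17 IDs, again including all 7. Without any other single library there were 6 to 10. Leaving out libraries cannot make the ages of an ID overlap. The 7 could therefore be lost only through the mean level or the ratio. ENSBTAG00000018040, with a ratio of 1.99, was the only one of the 7 lost when 1 library was left out. Its loss occurred for 9 of the 24 libraries, through the ratio limit of 2 and not through overlap.

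The size of the rise was next estimated in each treatment with edgeR's quasi-likelihood model over all 24 libraries. These estimates use the contrast that chose the IDs and are descriptions. In IUCL calves the log2 change from birth to weaning ran from 0.48 ± 0.10 (SE) for ENSBTAG00000010720 to 1.10 ± 0.18 for ENSBTAG00000018040, with a median of 0.64 against 0.01 over all 15693 IDs tested. In IUHS calves it ran from 0.36 ± 0.09 for ENSBTAG00000010885 to 0.97 ± 0.16 for ENSBTAG00000003395, with a median of 0.62 against 0.01. The edgeR call at an adjusted p under 0.05 was higher at weaning for all 7 in both treatments, beside 5.58% of all IDs tested in IUCL and 2.65% in IUHS calves. ENSBTAG00000010885 lost its call in IUHS calves without some single libraries (edgeR adjusted p of 0.0505 to 0.0743). It also did so with the spread estimated from IUHS libraries only (edgeR adjusted p = 0.0651). The rule largely fixes these calls, so nothing is read from them. The 2 treatments did not order the IDs identically. ENSBTAG00000018040 changed most in IUCL calves, by 1.10 against 0.92 ± 0.18 in IUHS calves, and ENSBTAG00000010885 changed by 0.50 ± 0.09 in IUCL and 0.36 in IUHS calves.

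The treatments were then compared within each age, a contrast that the rule did not use, although it limits how far calves of 1 age can lie apart. The question was whether exposure to heat before birth went with a different level of these 7 IDs. At birth 0 of 7 passed an adjusted p of 0.05 in edgeR, DESeq2 and limma-voom, as did 0% of all IDs tested in each. None of the 7 was under an unadjusted p of 0.05 in edgeR, where 3.93% of all IDs were. The log2 difference, IUHS minus IUCL, ran from -0.16 ± 0.18 (SE) for ENSBTAG00000018040 to 0.08 ± 0.15 for ENSBTAG00000007208. The 95% intervals of all 7 lay within -0.53 and 0.39, so a 2-fold difference in either direction was outside each of them.

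At weaning 0 of 7 passed in edgeR, DESeq2 and limma-voom, where 0%, 0.00637% and 0% of all IDs did. ENSBTAG00000010885 was the only one of the 7 under an unadjusted p of 0.05 in edgeR, where 6.99% of all IDs were. It was lower in IUHS calves by a log2 difference of -0.20 ± 0.09 (95% interval -0.39 to -0.003; edgeR unadjusted p = 0.0471, adjusted p = 0.714). The mean was 173 ± 12.7 CPM (SD, n = 6) with heat stress and 199 ± 18.7 CPM (SD, n = 6) with cooling, and the groups overlapped between 175 and 192 CPM. ENSBTAG00000018040 had the largest difference, -0.34 ± 0.18 (95% interval -0.70 to 0.03; edgeR adjusted p = 0.735), with means of 78.5 ± 21.9 CPM after heat stress and 101 ± 27.9 CPM after cooling (SD, n = 6 each). Without each library in turn this difference ran from -0.52 to -0.18. The largest difference in the other direction was 0.06 ± 0.15 for ENSBTAG00000007208 (95% interval -0.25 to 0.37; edgeR adjusted p = 0.982).

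**Figure D4:**
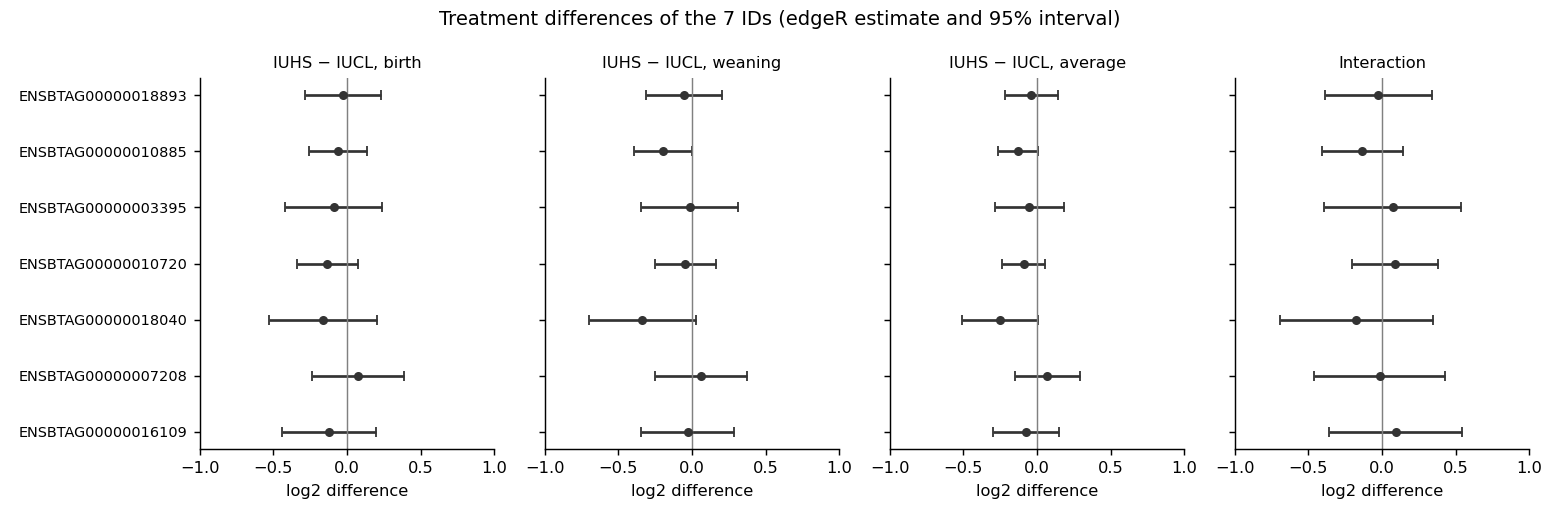
Log2 differences between treatments for the 7 IDs (horizontal axes; edgeR estimates with 95% intervals) in the birth calves, in the weaning calves and on average, with the interaction, which is the age change in IUHS minus that in IUCL calves. No interval reaches a 2-fold difference (log2 of 1), and all but that of ENSBTAG00000010885 at weaning include 0.

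Averaged over both ages 0 of 7 passed in edgeR, DESeq2 and limma-voom, as did 0% of all IDs in each, and 0 of 7 were under an unadjusted p of 0.05 in edgeR, where 4.61% of all IDs were. The average gave the smallest errors, with SEs of 0.07 to 0.13. The lowest value was -0.25 ± 0.13 for ENSBTAG00000018040 (edgeR adjusted p = 0.944), and the value for ENSBTAG00000010885 was -0.13 ± 0.07 (edgeR adjusted p = 0.944). Values below 0, lower in IUHS calves, were found for 6 of the 7 IDs at birth, at weaning and on average, against 48.6%, 48.9% and 47.2% of all IDs tested. At birth this count was 5 with libraries scaled by the sum of counts and 4 without both libraries that stood apart, and without those libraries it was 5 at weaning and 5 on average. Those 2 changes also moved the number under an unadjusted p of 0.05 in edgeR from 1 to 2 of 7 at weaning and from 0 to 1 of 7 on average. The share of all IDs under those 2 changes is not given here, so nothing is read from these counts. The 7 differences share calves and library totals and are not independent of each other.

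The interaction asked whether the rise with age differed between treatments. In edgeR, DESeq2 and limma-voom 0 of 7 passed, where 0%, 0.00637% and 0% of all IDs did. None of the 7 was under an unadjusted p of 0.05 in edgeR, where 5.56% of all IDs were. The values ran from -0.17 ± 0.25 for ENSBTAG00000018040 to 0.09 ± 0.22 for ENSBTAG00000016109, with 95% intervals between -0.69 and 0.54. The SEs of 0.13 to 0.25 were the widest of the 4 treatment contrasts.

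Whether the 7 IDs moved together from calf to calf was examined on their log2 levels (0.5 CPM added). The mean of each group had been taken away, so differences in mean level between ages or treatments did not contribute. Differences between groups in spread or in correlation remained in the pooled values. Pearson's r over the 24 calves was above 0 for 15 of the 21 pairs, with a median of 0.164. Over all pairs of the 8208 abundant IDs the median was 0.0157, and 51.7% of pairs were above 0. An r of at least 0.5 was found for 2 of 21 pairs and for 8.44% of all pairs of abundant IDs. The median of the 21 pairs was 0.152 without both libraries that stood apart, with 17 above 0. With TMM-scaled levels the median was 0.210 and the lowest r was 0.0361, so the number of pairs above 0 depended on the scaling. Values over all pairs of abundant IDs are not given here for these alternatives. All values share the library totals used for scaling.

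The closest pair was ENSBTAG00000010720 with ENSBTAG00000007208, which had an r of 0.611 (permutation p = 0.0185, adjusted 0.194 over 21 pairs) and a Spearman's rho of 0.718 (permutation p = 0.00125, adjusted 0.0263). Without the 2 calves farthest from the median of the first ID, r was 0.799. Within the groups r was 0.696 and 0.343 in IUCL and IUHS calves at birth and 0.680 and 0.769 at weaning. Over the 22 calves without both libraries that stood apart, r was 0.623. Pearson's r thus did not pass after adjustment and Spearman's rho did, the only one of the 21 pairs for which either passed. Each statistic was adjusted separately over the 21 pairs, and no adjustment over both was made, so the pass of rho does not allow for the use of both.

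ENSBTAG00000018893 with ENSBTAG00000003395 had an r of 0.607 (permutation p = 0.00449, adjusted 0.0943 over 21 pairs) and a rho of 0.561 (permutation p = 0.0109, adjusted 0.114). Without the 2 calves farthest from the median of the first ID, r was 0.585. The relation was not the same in each group: r was 0.946 in IUHS calves at weaning, 0.516 in IUCL calves at weaning and 0.760 in IUCL calves at birth, but -0.411 in IUHS calves at birth. Without both libraries that stood apart r was 0.602 over 22 calves, 0.748 in IUCL calves at birth and 0.986 in IUHS calves at weaning. Each group value rests on 5 or 6 calves, and their difference was not tested. The lowest r of the 21 was -0.1995, between ENSBTAG00000018893 and ENSBTAG00000010885 (permutation p = 0.352, adjusted 0.7998 over 21 pairs; rho -0.239, permutation p = 0.291, adjusted 0.814), and with TMM-scaled levels it was 0.0383. ENSBTAG00000018040, the ID with the largest ratio, had an r between -0.127 and 0.052 with the other 6. This range was -0.252 to 0.391 without both libraries that stood apart, the latter with ENSBTAG00000003395.

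**Figure D5:**
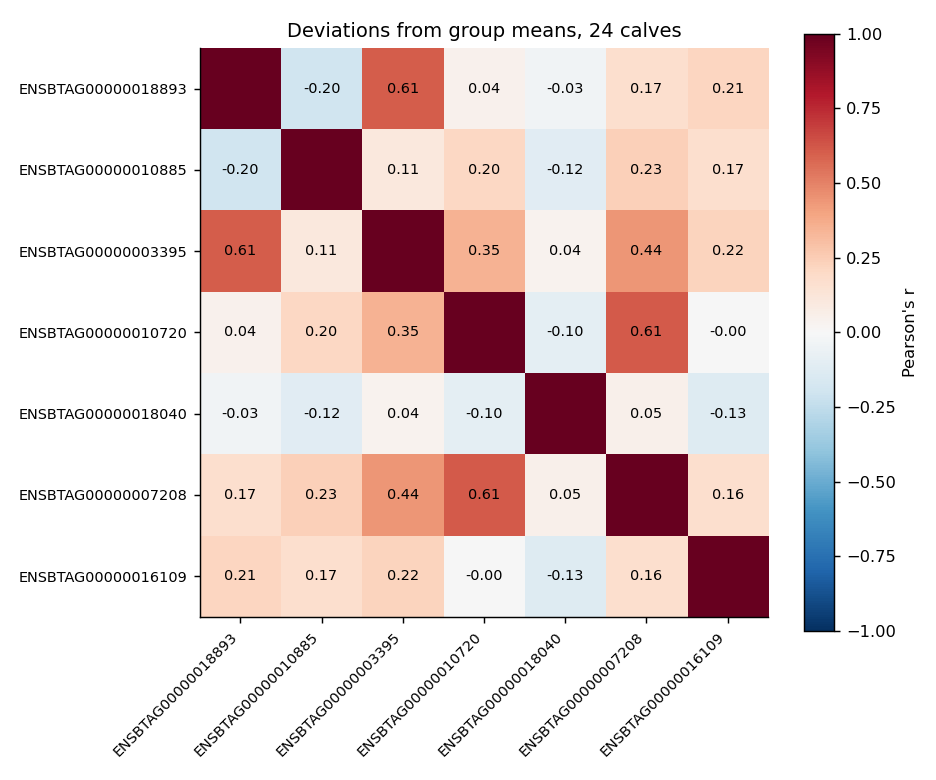
Pearson's r between the 7 IDs over 24 calves, computed on deviations of log2 CPM from the mean of each group (rows and columns: IDs; colour from -1 to 1). The 2 values above 0.5 are 0.61 each, and the row of ENSBTAG00000018040 stays between -0.13 and 0.05.

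Added together, the 7 IDs took 528 to 699 CPM (mean 623 ± 59.5) in IUCL and 568 to 642 CPM (mean 608 ± 25.3) in IUHS calves at birth. At weaning they took 893 to 1099 CPM (mean 984 ± 86.2) in IUCL and 833 to 1019 CPM (mean 919.5 ± 79.2) in IUHS calves (SD, n = 6 each). The treatments overlapped at both ages. Ranked from low to high among the 12 calves of an age, IUCL calf 6 had the lowest mean rank at birth, 2.86. It was the lowest birth calf for 2 of the 7 IDs, and IUCL calf 7 was the highest for 3.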

How the data were processed

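Adrenal gland RNA of 24 calves, 6 per group, was sequenced. The authors deposited raw read counts per Ensembl bovine gene ID, 1 table per calf. Per the submitters' processing notes, the tools were HISAT2, HTSeq, Trim Galore 0.4.4 and FastQC 0.11.7, and the genome build was ARS-UCD1.2. Other versions, the annotation release and the strand setting are not given in the sources used here, so overlapping or antisense genes and near-identical copies may share reads. Replicates are separate calves, per the series' design text. The 60 pairs within groups differed beyond sampling noise (chi-square over degrees of freedom of at least 15.6).

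The members, the lists and the tests were chosen with earlier results of these data known. The 25 gene lists could not be run without symbols. The rule for named genes took members by mean CPM, separation, nearness to the limits and smallest edgeR p in each treatment contrast and direction, and the IDs just outside each limit. All 7 members are named, and IDs outside the rule are given by their values only.

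Tests used edgeR 4.0.16 in R 4.3.3 (filterByExpr with minimum count 10 and total 15, TMM, robust quasi-likelihood fit, 4 group means over all 24 libraries), two-sided, with Benjamini-Hochberg adjustment over 15693 IDs. SEs are the log2 value over the root of F. The model was tested on simulated data. DESeq2 1.42.0, limma-voom (limma 3.58.1), other scalings, no filter, a replicate block and leaving out each library were alternatives. The permutation tests of correlation were two-sided, with 100000 shuffles of calves within groups (numpy 2.4.6, scipy 1.17.1).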

Additional observations from a re-analysis of the deposited data

Results flagged for a closer look

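In 32 groups of 6 values (the 7 IDs and their sum), Dixon's test at the 95% level set 4 single calves apart. Chance alone does so in about 1 in 20 groups of independent, normally distributed values. The rule used these same values and the sum is made of the 7 IDs, so the number found is not read against that rate. ENSBTAG00000018040 had 2 of them: 34.5 CPM in IUHS calf 2 at birth, where the others had 42.0 to 46.1 CPM, and 154 CPM in IUCL calf 19 at weaning, where the others had 79.4 to 103 CPM. ENSBTAG00000007208 measured 58.6 CPM in IUHS calf 25 at weaning, where the others had 64.1 to 66.0 CPM. ENSBTAG00000016109 measured 60.6 CPM in IUHS calf 28 at weaning, where the others had 41.3 to 48.5 CPM, and this library also stood apart on a principal component.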

How the results depend on the processing

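The number of IDs meeting the rule, 7, was 11 with TMM-scaled CPM, 10 with DESeq2 size factors, 8 at a mean CPM of at least 10, 6 at 50, 4 with a ratio of at least 1.5 and 6 to 19 without each library in turn. It was 17 without both libraries that stood apart, an alternative chosen after seeing the data. The cause was not tested. The number of members called between treatments was 0 in each of the 4 contrasts under each alternative run, with a smallest adjusted p of 0.557 (edgeR, DESeq2 or limma-voom). With the number in the title as a replicate block over the 8 birth libraries whose number occurs in both treatments, 0 members were called. In that fit the log2 difference at birth changed sign for ENSBTAG00000010885 (0.0441) and ENSBTAG00000007208 (-0.068). Same-numbered calves had correlations of deviations of -0.123, -0.105, 0.169 and 0.295. Calves with different numbers were not set beside them, so whether same-numbered calves share more than a number was not tested. The median log2 difference of the members was -0.09 at birth (-0.17 to -0.02 without each library) and -0.05 at weaning (-0.12 to 0.01). Without both libraries that stood apart it was -0.0073 at birth and -0.06 at weaning.

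Of 28 log2 values of single IDs, 13 changed sign under some alternative, none of them past the threshold. Scaled by the sum of counts, ENSBTAG00000018893 at birth was 0.0016. Without both libraries that stood apart, it was 0.0089, ENSBTAG00000016109 was 0.001 at birth and -0.1354 in the interaction, and ENSBTAG00000003395 was 0.0318 at weaning and 0.0123 on average. Without each library in turn, the birth values ran from -0.0724 to 0.0253 for ENSBTAG00000018893 and from -0.063 to 0.1488 for ENSBTAG00000007208. The weaning values ran from -0.1241 to 0.0221 for ENSBTAG00000018893, from -0.1357 to 0.0663 for ENSBTAG00000003395 and from -0.1387 to 0.0969 for ENSBTAG00000016109. The average for ENSBTAG00000007208 ran from -0.0017 to 0.1041. The interaction ran from -0.0891 to 0.0574 for ENSBTAG00000018893, from -0.0353 to 0.156 for ENSBTAG00000003395, from -0.0894 to 0.1225 for ENSBTAG00000007208 and from -0.0252 to 0.2194 for ENSBTAG00000016109.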
